A study of Mus musculus with 9 samples.

Results

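Genes of the heat shock response are described across 3 groups of mouse embryonic stem cell libraries. They were Hspa1a, Hspa1b, Hspa8, Hsph1, Dnajb1, Hspb1, Hsp90aa1, Bag3, Hspe1 and the gene of the heat shock transcription factor Hsf1. They form 10 of the 48440 genes in the count tables, and all 10 were among the 20838 genes that passed the filter on low counts. The list was drawn up after Hspa1b was seen to be higher once auxin had been washed out. The contrast of washed-out with auxin-treated cells is therefore given for these genes as a description without a test, and Hspa1b is tested in no comparison. Transcripts of the inducible HSP70 gene Hspa1b averaged 12.1 ± 0.087 CPM (counts scaled to library size with TMM factors) in Mock cells, 2.601 ± 0.139 CPM in auxin and 25.1 ± 1.48 CPM after washout (SD, n = 3 libraries each).

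The cells were of the J1 line and carried an auxin-inducible degron on Suz12 (Suz12-AID), a tag through which added auxin leads to destruction of the protein. Without Suz12, Polycomb repressive complex 2 cannot methylate histone H3 at the genes it silences. All groups carried the tag and were grown in serum with LIF and the inhibitors PD0325901 and CHIR99021. Mock cells are named so in the labels with no further detail. Auxin cells received 50 µM indole-3-acetic acid for 96 h. Reintroduction cells received the same 50 µM for 96 h and then had auxin washed out for 4.5 h. Each group held 3 libraries of polyadenylated RNA that the submitters call biological replicates. No separate cultures are named, so p-values measure the spread between these libraries. The labels describe no Mock culture taken through a washout, so the handling at washout and the return of Suz12 cannot be told apart. Suz12 protein was not measured in these data.

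The heat shock response raises the supply of protein-folding helpers when proteins unfold. Its main activator, HSF1, is held inactive by chaperones in unstressed cells, forms trimers when unfolded proteins occupy those chaperones, and binds heat shock elements, which are inverted repeats of the unit nGAAn. Its targets include HSP70 proteins, the J-domain proteins that deliver clients to them, the exchange factors that release their nucleotide, HSP90 and small heat shock proteins. Embryonic stem cells are known for high basal levels of several chaperones.

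Promoter windows of 7 of the 10 genes were matched by symbol in RefSeq (GRCm38.p6, 250 bases before to 50 bases after each annotated start). Windows of Hspa8, Hsp90aa1 and Hsf1 were not matched. The stretches below are shown because they hold matches to parts of heat shock elements, which are in capitals. In Hspe1 and Hsph1 these are runs of 3 units, and in the other genes shown they are inverted pairs only. Each stretch is written 5′ to 3′ on the strand of its gene. The Hspa1a and Hspa1b stretches are the 250 bases before the start, at chr17:34972157-34972406 and chr17:34959239-34959488 on the minus strand. Hspb1 is shown at chr5:135887776-135887855 (plus strand), Hspe1 at chr1:55088033-55088102 (plus strand), Hsph1 at chr5:149636280-149636308 (minus strand) and Bag3 at chr7:128523605-128523632 (plus strand).
Hspa1a: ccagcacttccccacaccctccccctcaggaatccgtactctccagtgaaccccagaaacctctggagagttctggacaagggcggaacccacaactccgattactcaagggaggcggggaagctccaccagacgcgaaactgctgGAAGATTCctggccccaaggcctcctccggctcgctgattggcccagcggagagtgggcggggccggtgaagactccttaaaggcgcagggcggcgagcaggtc
Hspa1b: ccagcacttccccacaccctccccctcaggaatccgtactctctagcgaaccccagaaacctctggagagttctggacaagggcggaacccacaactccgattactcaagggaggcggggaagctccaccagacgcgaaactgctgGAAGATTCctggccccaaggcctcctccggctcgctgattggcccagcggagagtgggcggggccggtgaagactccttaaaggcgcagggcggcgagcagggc
Hspb1: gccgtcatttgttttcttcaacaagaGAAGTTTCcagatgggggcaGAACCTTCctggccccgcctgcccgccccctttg
Hspe1: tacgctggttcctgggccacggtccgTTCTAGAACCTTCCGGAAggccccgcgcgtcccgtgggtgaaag
Hsph1: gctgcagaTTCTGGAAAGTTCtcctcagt
Bag3: aagttctctggatgggaccaGAAGTTTC

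Short motifs were searched on both strands, and the matches overlap one another by construction. The inverted pair GAANNTTC was present in the windows of 6 of the 7 genes, all but Dnajb1, and in 9.04% of the 27025 genes with a window. The other inverted pair, TTCNNGAA, was present in Hspe1 and Hsph1, against 9.6% of all genes. Both also held the run of 3 units GAANNTTCNNGAA, on either strand, which was found in 0.662% of all genes. CCAAT was present in 4 of the 7 genes, Hspa1a, Hspa1b, Hsph1 and Dnajb1, against 41.1% of all genes. TATAAA was present in 0 of the 7, against 15.7%. In Hspa1a and Hspa1b the GAANNTTC match took up bases 147 to 154 of the window, with 96 bases between it and the start. The 2 windows differed at 4 of 300 bases, written from Hspa1a to Hspa1b and counted from the first base of the window: C44T, T47C, T249G and C276T. None of these positions lies within the GAANNTTC match. These genes were picked as known heat shock genes, so the shares describe the list. A match is a description of letters and not of binding.

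Library totals ranged from 44341283 counts in Reintroduction replicate 2 to 113931419 in Mock replicate 1, and the mates of a pair were counted as separate reads. All 8 embryonic stem cell markers listed had a group mean of at least 1 CPM, and their summed level was 5739 to 5912 CPM in Mock, 7003 to 7544 CPM in Auxin and 5482 to 5556 CPM in Reintroduction. The markers did not move together: Pou5f1 (806 to 911 against 551 to 639 CPM) and Dppa5a (392.2 to 443 against 164 to 217 CPM) were lower in Auxin than in Mock, and Sox2 (365 to 382 against 737 to 761 CPM) and Tfcp2l1 (924 to 1047 against 1638 to 1819 CPM) were higher. Summed primitive endoderm markers (4 of 6 with a group mean of at least 1 CPM) lay at 5.15 to 6.67, 21.4 to 22.4 and 13.6 to 15.3 CPM in the same order of groups. Summed fibroblast markers (1 of 6, Thy1) lay at 17.9 to 20.1, 39.0 to 46.4 and 37.4 to 38.9 CPM, and trophoblast markers (2 of 6) at 3.27 to 3.89, 1.48 to 2.23 and 1.97 to 2.87 CPM. No marker on these lists was at 0 in every library. Mitochondrial transcripts took 3.79% to 4% of counts in Mock and Auxin and 4.58% to 4.80% in Reintroduction. Levels also followed exon length by group, with slopes of -0.18 to -0.13 log2 units per doubling of length in Mock, 0.03 to 0.12 in Auxin and 0.06 in each Reintroduction library. The part of marker levels and mitochondrial share in the results was not tested, and values with the length trend removed are given where they change a call. Suz12 mRNA was 125 to 138 CPM in Mock, 122 to 152 CPM in Auxin and 164 to 173 CPM in Reintroduction, a check that does not bear on the protein a degron removes. In bulk RNA, fewer cells that express a gene and less RNA per cell cannot be told apart.

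The HSP70 genes Hspa1a and Hspa1b encode almost the same stress-inducible chaperone. Hspa1b (ENSMUSG00000090877.3, chr17:34956436-34959238, mm10, minus strand) had 12.1, 12.0 and 12.1 CPM in Mock replicates 1 to 3, 2.54, 2.51 and 2.76 CPM in Auxin, and 24.0, 24.5 and 26.8 CPM in Reintroduction. The 3 groups did not overlap, with Auxin lowest and Reintroduction highest. The level was 4.64-fold lower in Auxin than in Mock (log2 -2.21, SE 0.07), 9.65-fold higher in Reintroduction than in Auxin (log2 3.27, SE 0.07) and 2.08-fold higher in Reintroduction than in Mock (log2 1.06, SE 0.06). The difference between Reintroduction and Auxin led to the list, and none of these values carries a test.

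Hspa1a (ENSMUSG00000091971.3, chr17:34969190-34972156, minus strand) had 4.03, 5.02 and 5.23 CPM in Mock, 1.20, 1.01 and 0.979 CPM in Auxin, and 9.57, 8.49 and 10.98 CPM in Reintroduction. As for Hspa1b, the groups were ordered Auxin, Mock, Reintroduction without overlap. Behind the Auxin values stood only 67 to 98 counts per library. Hspa1a fell by 2.15 on the log2 scale in Auxin against Mock (SE 0.15, 4.45-fold, adjusted p = 1.47e-07). It was 3.19 higher on the log2 scale in Reintroduction than in Auxin (9.11-fold, no test), and it rose by 1.03 against Mock (SE 0.13, 2.05-fold, adjusted p = 2.6e-05). Adjusted p-values here and below are from edgeR's quasi-likelihood test with Benjamini-Hochberg adjustment over all 20838 genes. Both tested comparisons share libraries with the contrast from which the list was drawn. Because Hspa1a shares much of its sequence with Hspa1b, its p-values are not independent of the gene that led to the list.

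The coding sequences of this pair are nearly identical, so their counts cannot be fully separated. Of all stretches of 75 bases, the read length, in the Hspa1a transcript, 52.7% also occur in Hspa1b, and 55.8% of those in Hspa1b occur in Hspa1a. The ratio of Hspa1b to Hspa1a counts stayed between 2.12 and 3.00 in the 9 libraries. Summing the pair before the fit gave log2 differences of -2.20, 3.25 and 1.05 in Auxin against Mock, Reintroduction against Auxin and Reintroduction against Mock. The overlapping annotated gene Gm20481, which shares exons with Hspa1a, was listed at 0 in all 9 libraries.

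**Figure D1:**
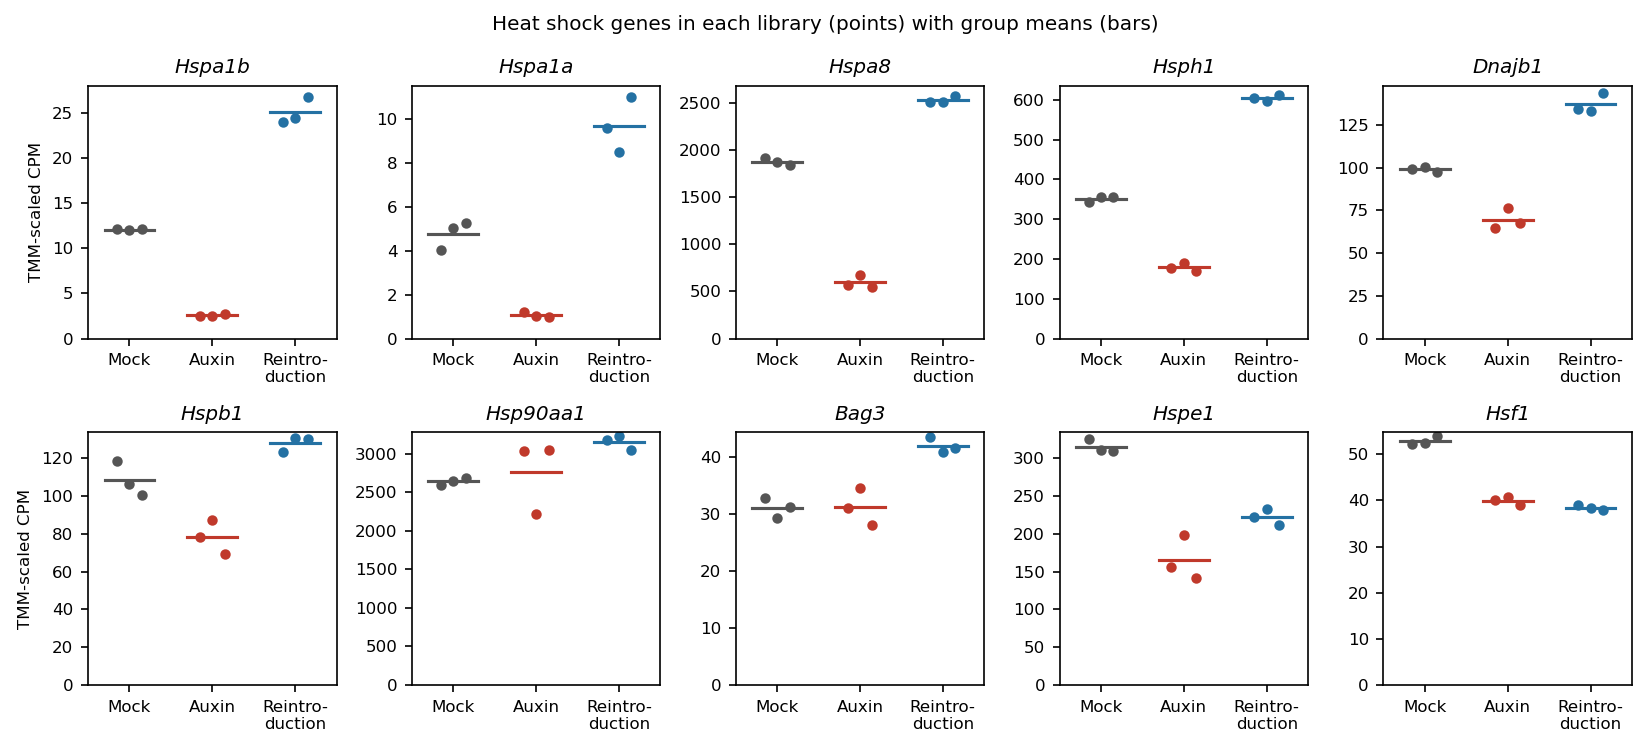
Level of each of the 10 heat shock genes in TMM-scaled CPM (vertical axes start at 0 and differ between panels). Points are the 3 libraries of each group and bars are group means. In the panels of Hspa1b, Hspa1a, Hspa8, Hsph1, Dnajb1 and Hspb1 the Auxin libraries lie lowest and the Reintroduction libraries highest. Hsf1 and Hspe1 are highest in Mock.

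Hspa8 encodes HSC70, the constitutive cytosolic HSP70 that folds new proteins and strips clathrin coats. Hspa8 (ENSMUSG00000015656.16, chr9:40800984-40805200) had 1911, 1872.5 and 1837 CPM in Mock, 573, 675 and 547 CPM in Auxin, and 2505, 2507 and 2577 CPM in Reintroduction. The lowest Mock library was above every Auxin library and below every Reintroduction library. Hspa8 fell by 1.65 on the log2 scale in Auxin (SE 0.08, 3.13-fold, adjusted p = 7.28e-09), was 2.08 higher in Reintroduction than in Auxin (4.23-fold, no test), and rose by 0.43 in Reintroduction against Mock (SE 0.07, 1.35-fold, adjusted p = 0.000346). In Auxin against Mock this decline was steeper than that of any other tested gene on the list except Hspa1a, although no difference between genes was tested.

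Hsph1 encodes HSP110, an exchange factor that lets HSP70 release its nucleotide and its client. Hsph1 (ENSMUSG00000029657.15, chr5:149614287-149636376) had 342, 355 and 356 CPM in Mock, 178, 190 and 169 CPM in Auxin, and 604, 597 and 613 CPM in Reintroduction. The groups were far apart relative to the spread within them, and no 75-base stretch of Hsph1 occurs in another gene. It fell by 0.97 on the log2 scale in Auxin against Mock (SE 0.05, 1.96-fold, adjusted p = 2.94e-08), or by 1.31 with the length trend removed. In Reintroduction it was 1.75 higher than in Auxin (3.37-fold, no test) and rose by 0.78 against Mock (SE 0.05, 1.72-fold, adjusted p = 3.64e-07), or by 0.49 with the length trend removed. The heat shock element shown above for Hsph1 is the run of 3 units, and it lies downstream of both annotated starts in RefSeq. A TTCNNGAA match also lies upstream of them, with 25 bases between it and the nearer start and 46 to the other.

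Dnajb1 encodes HSP40, the J-domain partner that stimulates ATP use by HSP70. Dnajb1 (ENSMUSG00000005483.9, chr8:83608175-83611902) had 99.3, 100.6 and 97.3 CPM in Mock, 64.9, 76.7 and 67.5 CPM in Auxin, and 134.7, 133.5 and 144.0 CPM in Reintroduction. The order of the groups was again Auxin, Mock, Reintroduction with no overlap, and Dnajb1 too has no 75-base stretch in another gene. It fell by 0.51 on the log2 scale in Auxin (SE 0.07, adjusted p = 2.9e-05), was 0.98 higher in Reintroduction than in Auxin (1.97-fold, no test), and rose by 0.47 against Mock (SE 0.07, adjusted p = 6.91e-05). With length and GC trends removed together the values against Mock were -0.29 in Auxin and 0.78 in Reintroduction, both still called.

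Bag3 encodes a co-chaperone that joins HSP70 to selective autophagy. Bag3 (ENSMUSG00000030847.8, chr7:128523616-128546981) had 32.7, 29.3 and 31.2 CPM in Mock, 31.1, 34.4 and 28.1 CPM in Auxin, and 43.5, 40.9 and 41.5 CPM in Reintroduction. Mock and Auxin overlapped, while each Reintroduction library was above all 6 others. The difference between Auxin and Mock was 0.01 on the log2 scale (SE 0.08, adjusted p = 0.937), with a sign that changed under several settings. With total counts in place of TMM it was called higher (0.22, adjusted p = 0.0143), as with the length and GC trends removed together (0.22, adjusted p = 0.0014). Bag3 was 0.43 higher in Reintroduction than in Auxin (no test) and rose by 0.43 against Mock (SE 0.08, 1.35-fold, adjusted p = 0.000385), or by 0.74 with both trends removed.

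Hspb1 encodes HSP27 (HSP25 in mouse), a small heat shock protein that holds unfolded proteins in a soluble state. Hspb1 (ENSMUSG00000004951.10, chr5:135887919-135889563) had 118.7, 106.3 and 100.5 CPM in Mock, 78.3, 87.3 and 69.2 CPM in Auxin, and 123.2, 130.5 and 130.4 CPM in Reintroduction. No groups overlapped, although the highest Mock library came close to the lowest Reintroduction library. Hspb1 fell by 0.47 on the log2 scale in Auxin (SE 0.09, 1.39-fold, adjusted p = 0.000426), was 0.71 higher in Reintroduction than in Auxin (no test), and rose by 0.24 against Mock (SE 0.09, 1.18-fold, adjusted p = 0.028). Its exons, of 1031 bases in all, are the shortest on the list. With the length trend removed, Hspb1 in Auxin against Mock gave -0.05 (adjusted p = 0.464), and the sign turned with length and GC trends removed together (0.09). The same settings gave larger values for Reintroduction against Mock, 0.59 and 0.69 (adjusted p = 6.2e-06 and 2.26e-07). The call against Mock in Reintroduction was lost without Mock replicate 2 (0.20, adjusted p = 0.107) or 3 (0.16, adjusted p = 0.152) and without Reintroduction replicate 1 (0.24, adjusted p = 0.0521), 2 (0.23, adjusted p = 0.0786) or 3 (0.20, adjusted p = 0.0992).

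Hsp90aa1 encodes the inducible cytosolic HSP90, which matures kinases and hormone receptors. Hsp90aa1 (ENSMUSG00000021270.13, chr12:110690605-110702728) had 2593, 2644 and 2685 CPM in Mock, 3032, 2220 and 3050 CPM in Auxin, and 3178, 3224 and 3042 CPM in Reintroduction. Auxin replicate 2 lay below every Mock library, and the other 2 Auxin libraries lay above every Mock library. The difference between Auxin and Mock was 0.07 on the log2 scale (SE 0.10, adjusted p = 0.572). Without Auxin replicate 2 it was 0.20 and called (adjusted p = 0.000722), and with total counts it was 0.28 and called (adjusted p = 0.0392). Hsp90aa1 was 0.19 higher in Reintroduction than in Auxin (no test) and, at an adjusted p of 0.0491, rose by 0.25 against Mock (SE 0.10, 1.19-fold). That last call was lost when any 1 Mock library (0.22 to 0.24, adjusted p = 0.122 to 0.16), any 1 Reintroduction library (0.23 to 0.26, adjusted p = 0.0982 to 0.145) or Auxin replicate 1 (0.23, adjusted p = 0.0665) was left out. It was also lost with DESeq2 size factors (0.23, adjusted p = 0.0599), a filter of 1 CPM (0.28, adjusted p = 0.056), halved counts (0.26, adjusted p = 0.061), the replicate block (0.25, adjusted p = 0.0643), and length and GC trends removed together (0.09, adjusted p = 0.279).

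Hspe1 encodes HSP10, the lid of the mitochondrial HSP60 folding chamber, so its protein works outside the cytosol. Hspe1 (ENSMUSG00000073676.4, chr1:55088132-55091307) had 325, 311 and 310 CPM in Mock, 156, 198 and 142 CPM in Auxin, and 223, 233 and 212 CPM in Reintroduction. The Reintroduction libraries lay between the other groups, above Auxin and below Mock. Hspe1 fell by 0.93 on the log2 scale in Auxin (SE 0.10, 1.91-fold, adjusted p = 7.49e-06), was 0.43 higher in Reintroduction than in Auxin (no test), and fell by 0.50 in Reintroduction against Mock (SE 0.10, 1.42-fold, adjusted p = 0.0011). With the length trend removed these values against Mock were -0.61 and -0.21, both still called. Its neighbour Hspd1, which encodes HSP60 and is transcribed away from it, had means of 944, 316 and 721 CPM in the same order. The 2 genes overlap in the annotation and were counted without strand, so reads in the overlap could not be assigned to 1 of them by strand.

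Hsf1 encodes the transcription factor itself, whose activity is set mainly by its protein state and not by its transcript level. Hsf1 (ENSMUSG00000022556.9, chr15:76477445-76500972) had 52.3, 52.3 and 53.9 CPM in Mock, 40.0, 40.8 and 39.0 CPM in Auxin, and 38.9, 38.4 and 37.9 CPM in Reintroduction. Mock stood above all other libraries, and the lowest Auxin library was next to the highest Reintroduction library. Hsf1 fell by 0.40 on the log2 scale in Auxin (SE 0.05, 1.32-fold, adjusted p = 1.19e-05) and by 0.46 in Reintroduction against Mock (SE 0.05, 1.38-fold, adjusted p = 6.93e-06). Reintroduction and Auxin differed by -0.06 (SE 0.05, no test). The call against Mock in Reintroduction was lost with length and GC trends removed together (-0.11, adjusted p = 0.0731). With only the length trend removed, the Hsf1 values against Mock were -0.18 in Auxin and -0.24 in Reintroduction, both still called.

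Across the list in Auxin against Mock, 7 of the 9 tested genes fell and 0 rose, while 34.8% of all genes tested were called lower and 38.4% higher. The 2 not called were Hsp90aa1 and Bag3. With Hspa1a and Hspa1b summed and set aside, 6 of the other 8 genes fell and 0 rose. With Hspa1b counted, 8 of the 10 lay below Mock with no overlap of CPM, against 35.8% of all genes. The median log2 difference of the 10 genes was -0.72, beside 0.05 over all genes. Of the genes called, Hspa1a and Hspa8 were more than 2-fold lower, a size reached by 31.8% of all genes in either direction. Over the alternatives, Hsph1 and Hspe1 reached log2 values as low as -1.32 and -1.09, past 2-fold as well. With total counts in place of TMM the median of all genes moved to 0.26, and Hsp90aa1 and Bag3 were then called higher.

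In Reintroduction against Auxin, the fitted difference was above 0 for 9 of the 10 genes, all but Hsf1, where 50.2% of all genes lay above 0. CPM values were higher in Reintroduction without overlap for 8 of the 10 genes, against 28.8% of all genes, and lower without overlap for Hsf1, against 29.4%. Hsp90aa1 was the gene whose libraries overlapped. The median was 0.84, beside 0.003 over all genes. The list was drawn from this contrast, so nothing is read from these counts.

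In Reintroduction against Mock, 7 of the 9 tested genes rose and 2, Hsf1 and Hspe1, fell. Without Mock replicate 2 or 3, or without any 1 Reintroduction library, 5 were called higher, and Hspb1 and Hsp90aa1 were not called. With Hspa1a and Hspa1b summed and set aside, 6 of the other 8 genes rose and 2 fell. Of all genes tested, 34.7% were called higher and 33.4% lower. No member overlapped between these groups: 8 of the 10 were higher, against 38.2% of all genes, and 2 lower, against 37%. The median of the 10 genes was 0.43, beside 0.03 over all genes, and Hspa1a was the tested gene that passed 2-fold, against 22.4% of all genes. The 6 genes Hspa1a, Hspa1b, Hspa8, Hsph1, Dnajb1 and Hspb1, had Auxin below Mock below Reintroduction with no overlap in CPM. That order was found in 489 of the 20838 genes, or 2.35%. Hspa1b is among the 6 because the list began with it, and Hspa1a shares sequence with Hspa1b. The order also includes Reintroduction above Auxin, the contrast from which the list was drawn, so nothing is read from this count. Summed over the list, levels were 5488 to 5490 CPM in Mock, 3526 to 4157 CPM in Auxin and 6835 to 6937 CPM in Reintroduction, and Hspa8 and Hsp90aa1 made up most of each sum.

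**Figure D2:**
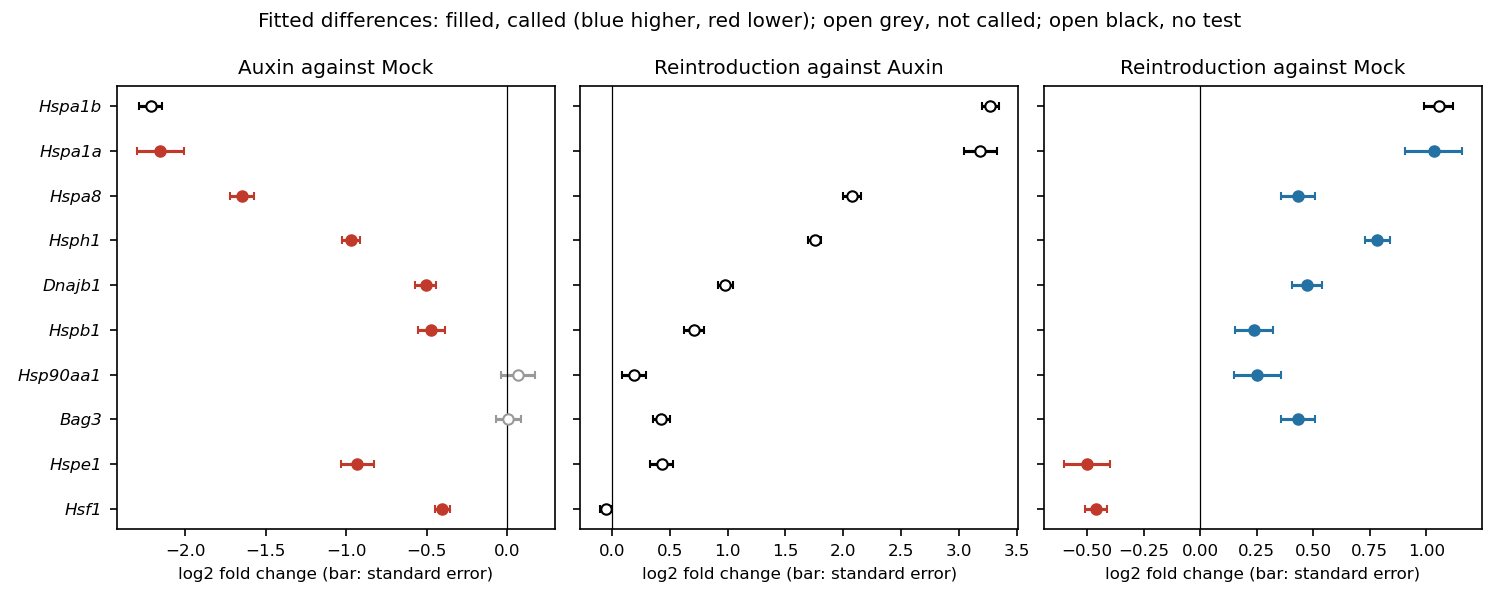
Fitted log2 fold changes (points) with standard errors (bars) of the 10 genes in the 3 comparisons, with a separate horizontal scale for each panel. Filled points were called at an adjusted p under 0.05, grey open points were not called and black open points carry no test. In Auxin against Mock the values run from -2.21 to 0.07, and in Reintroduction against Auxin from -0.06 to 3.27. In Reintroduction against Mock, Hspe1 and Hsf1 are the genes below 0.

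Levels of different genes were compared per kilobase of counted exon, as RPKM. In Mock the order of mean levels was Hsp90aa1 (672 ± 11.7 RPKM), Hspa8 (451 ± 8.84), Hspe1 (214 ± 5.66), Hspb1 (105 ± 9.01), Hsph1 (48.3 ± 1.07), Dnajb1 (43.8 ± 0.724), Hsf1 (26.2 ± 0.455), Bag3 (12.1 ± 0.669), Hspa1b (4.30 ± 0.031) and Hspa1a (1.60 ± 0.217), with SD over 3 libraries. Each neighbouring pair in this order was further apart than the sum of their SDs. In Auxin, Hspa8 (144 ± 16.3 RPKM) and Hspe1 (112 ± 19.9 RPKM) were closer together than the sum of their SDs. In the same libraries Hsp90aa1 was at 704 ± 121 RPKM, Hspa1b at 0.928 ± 0.050 RPKM and Hspa1a at 0.358 ± 0.039 RPKM. In Reintroduction the highest were Hsp90aa1 (801 ± 24.1 RPKM) and Hspa8 (609 ± 9.84 RPKM), while Hspa1b reached 8.94 ± 0.527 RPKM and Hspa1a 3.26 ± 0.421 RPKM. The inducible HSP70 genes thus stayed the lowest of the 10 in each group, also where they were at their highest. Counts of genes with near-identical copies can be too low or too high, which limits this order. Bowtie2, named in the submitters' processing notes without a role, does not split reads over introns, and reads across exon junctions of Hsp90aa1 or Hspa8 can then be placed on their processed pseudogenes. Whether that happened here was not tested.

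Processed pseudogenes, which are intronless copies of messenger RNAs, carried large counts next to several of these genes. Hspa8 shares 33% of its 75-base stretches with other genes, among them the pseudogenes Gm15459 (30.2%), Gm8355 (16.4%) and Gm6210 (9.63%). Counts did not follow the share: Gm15459 had means of 8.28, 2.84 and 12.8 CPM in Mock, Auxin and Reintroduction, and Gm6210 had 655, 198 and 888 CPM. Gm8355 had means of 1747 ± 91.3, 505 ± 51.1 and 2203 ± 47.9 CPM in Mock, Auxin and Reintroduction, close in order and size to Hspa8. Hsp90aa1 shares 42.8% of its stretches, 36.2% with Gm12346. Gm12346 had 2988 ± 94.0, 3268 ± 682 and 3802 ± 30.5 CPM, and its Auxin replicate 2 was low (2481 CPM) beside replicates 1 and 3 (3649 and 3675 CPM), as in Hsp90aa1. Gm5844, another copy of Hsp90aa1, had 1074 ± 36.0, 1137 ± 194 and 1308 ± 29.8 CPM. Hspb1 shares 46.4% of its stretches with Hsp25-ps1, which had 28.7 ± 3.15, 18.9 ± 1.82 and 27.7 ± 1.32 CPM. How much of each pseudogene count came from the parent gene was not tested. With members and such pseudogenes summed, a setting added after seeing the data, 7 members were called in Auxin against Mock and 8 in Reintroduction against Mock, where Hspb1 was no longer called (0.18, adjusted p = 0.0695). Hsph1, Dnajb1, Bag3 and Hsf1 share no such stretch with any gene.

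**Figure D3:**
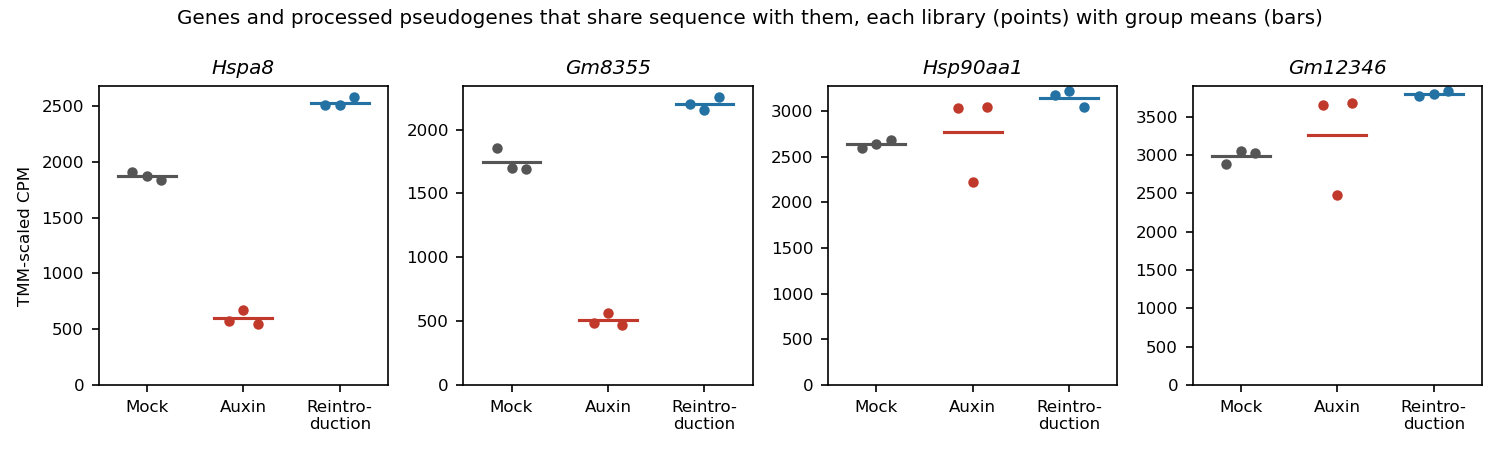
TMM-scaled CPM (vertical axes start at 0 and differ between panels) of Hspa8 and Hsp90aa1 and of a processed pseudogene of each, Gm8355 and Gm12346. Points are libraries and bars are group means. Each pseudogene has the group order of its parent, and Auxin replicate 2 is low for both Hsp90aa1 and Gm12346.

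A list of 65 other chaperone and heat shock genes, also chosen with earlier results of these data known, gave the setting for the 10, and 63 of them passed the filter (Hspb3 and Cryaa did not). In Auxin against Mock, 41 fell and 16 rose, with a median of -0.45 beside 0.05 over all genes, and 73.2% of all genes were called in either direction. In Reintroduction against Auxin, 37 rose and 12 fell, with a median of 0.28 beside 0.003, where 25.5% of all genes were called higher and 25.5% lower (50.9% in all). In Reintroduction against Mock, 35 fell and 15 rose, with a median of -0.23 beside 0.03, where 68.1% of all genes were called. The median of the 63 thus had the opposite sign to that of the 10 genes in that comparison. Both calls, lower in Auxin against Mock and higher in Reintroduction against Auxin, were held by 31 of the 63 and by 17.4% of all genes, and the 2 comparisons share the Auxin libraries.

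HSP90 and its co-chaperones formed the largest class. All 14 fell in Auxin against Mock, 11 rose in Reintroduction against Auxin, and 10 fell and 2 rose in Reintroduction against Mock. Of all genes, 34.8% were called lower in Auxin against Mock, 25.5% higher in Reintroduction against Auxin, and 33.4% lower and 34.7% higher in Reintroduction against Mock, and the class counts below have the same background. Hsp90ab1, the constitutive HSP90, had means of 5493, 3313 and 4160 CPM in Mock, Auxin and Reintroduction. It fell by 0.73 on the log2 scale in Auxin (adjusted p = 2.85e-06) and was still below Mock after washout (log2 -0.40, adjusted p = 0.000436). Hsp90aa1 had the other sign after washout (log2 0.25), but its call was lost under many of the settings given above. Fkbp4, an immunophilin of the steroid receptor complex, had the largest fall of the class in Auxin (-1.68, SE 0.07, adjusted p = 3.36e-09, 1257 to 391.8 CPM). Cacybp, which binds HSP90 and ubiquitin ligases, fell by 1.53 (adjusted p = 5.63e-10) and then rose by 1.303 on washout (adjusted p = 6.73e-09). Ahsa2 and Chordc1 were the 2 of this class called higher than Mock after washout (0.72, adjusted p = 7.13e-06, and 0.47, adjusted p = 0.000118). Ppid also lay above Mock without overlap but was not called (0.20, adjusted p = 0.0782).

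The 8 subunits of the CCT chaperonin, which folds actin and tubulin, all fell in Auxin, by 0.51 (Cct4) to 1.34 (Cct3) on the log2 scale. In Reintroduction against Auxin 7 of the 8 rose, with Cct4 not called (0.05, adjusted p = 0.563), and all 8 were lower than Mock after washout. Cct7, which shares exon sequence with Pradc1, had the largest such fall (-0.73, adjusted p = 6.5e-06). Of 6 mitochondrial chaperones and proteases, 5 fell in Auxin and 5 were lower than Mock after washout, Hspd1 by 1.58 in Auxin (adjusted p = 1.59e-09) and the protease gene Clpp by 0.92 after washout (adjusted p = 6.64e-07). Hspe1, the partner of Hspd1, had this same order of groups.

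Among the 9 cytosolic J-domain genes, 5 fell and 4 rose in Auxin (34.8% and 38.4% of all genes), and 7 rose in Reintroduction against Auxin (25.5% of all genes). Dnaja1, a J-domain partner of HSP70 whose exons overlap Smu1, had means of 179, 74.3 and 192 CPM and, among the 63 other chaperone genes with at least 1 CPM in the higher group, the largest rise on washout (1.37, SE 0.05, adjusted p = 6.3e-09). Of the 5 other cytosolic HSP70 genes, 3 fell and 2 rose in Auxin (34.8% and 38.4% of all genes). Hspa4l rose by 2.40 in Auxin (2.81 to 14.8 CPM, adjusted p = 4.56e-09) and stood 3.18 above Mock after washout (25.5 CPM, adjusted p = 3.14e-09). Hspa4 fell by 1.08 in Auxin (1100 to 520 CPM, adjusted p = 6.48e-09) and was 0.49 below Mock after washout (adjusted p = 5.78e-06). Hspa2, Dnaja1, Dnajc2, Ahsa2, Chordc1 and Ppid, 6 of the 63, had the same order of groups without overlap as the 6 heat shock genes above. Over all genes the share with that order was 2.35%. Dnaja1, Dnajc2 and Ppid were not called in Reintroduction against Mock (adjusted p = 0.0832, 0.312 and 0.0782). This list was also chosen with earlier results known, so nothing is read from the count.

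Some stress genes moved the other way. Serpinh1, which encodes the collagen chaperone HSP47, rose by 2.59 on the log2 scale in Auxin (27.2 to 164 CPM, adjusted p = 2.09e-10) and was still 1.81 above Mock after washout (95.6 CPM, adjusted p = 6.93e-09). The small heat shock genes Hspb7 and Hspb6, known from muscle, differed by -1.61 and -2.96 on washout (adjusted p = 1.06e-05 and 2e-08), while Cryab rose by 1.21 (1.26 to 2.91 CPM, adjusted p = 0.000307). Hspb7 had risen by 3.19 in Auxin (0.445 to 4.01 CPM, adjusted p = 3.2e-08) and was 1.58 above Mock after washout (adjusted p = 2.76e-05). Hspb6, whose exons overlap Lin37 and Proser3, ended 1.26 below Mock on the log2 scale (log2 -1.26, adjusted p = 7.56e-06). Of the other heat shock factors and their binding protein, 3 of 5 rose in Auxin (38.4% of all genes) and 3 of 5 fell on washout (25.5% of all genes), with Hsf5 at -1.23 (2.45 to 1.03 CPM, adjusted p = 0.000124). Among those that rose, Hsf3 (0.151 to 0.687 CPM) and Hsf4 (0.230 to 0.445 CPM) had means under 1 CPM in each group. Hsf2 (48.0 to 49.2 CPM) and Hsbp1 (84.9 to 80.4 CPM) were not called in Auxin against Mock.

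**Figure D4:**
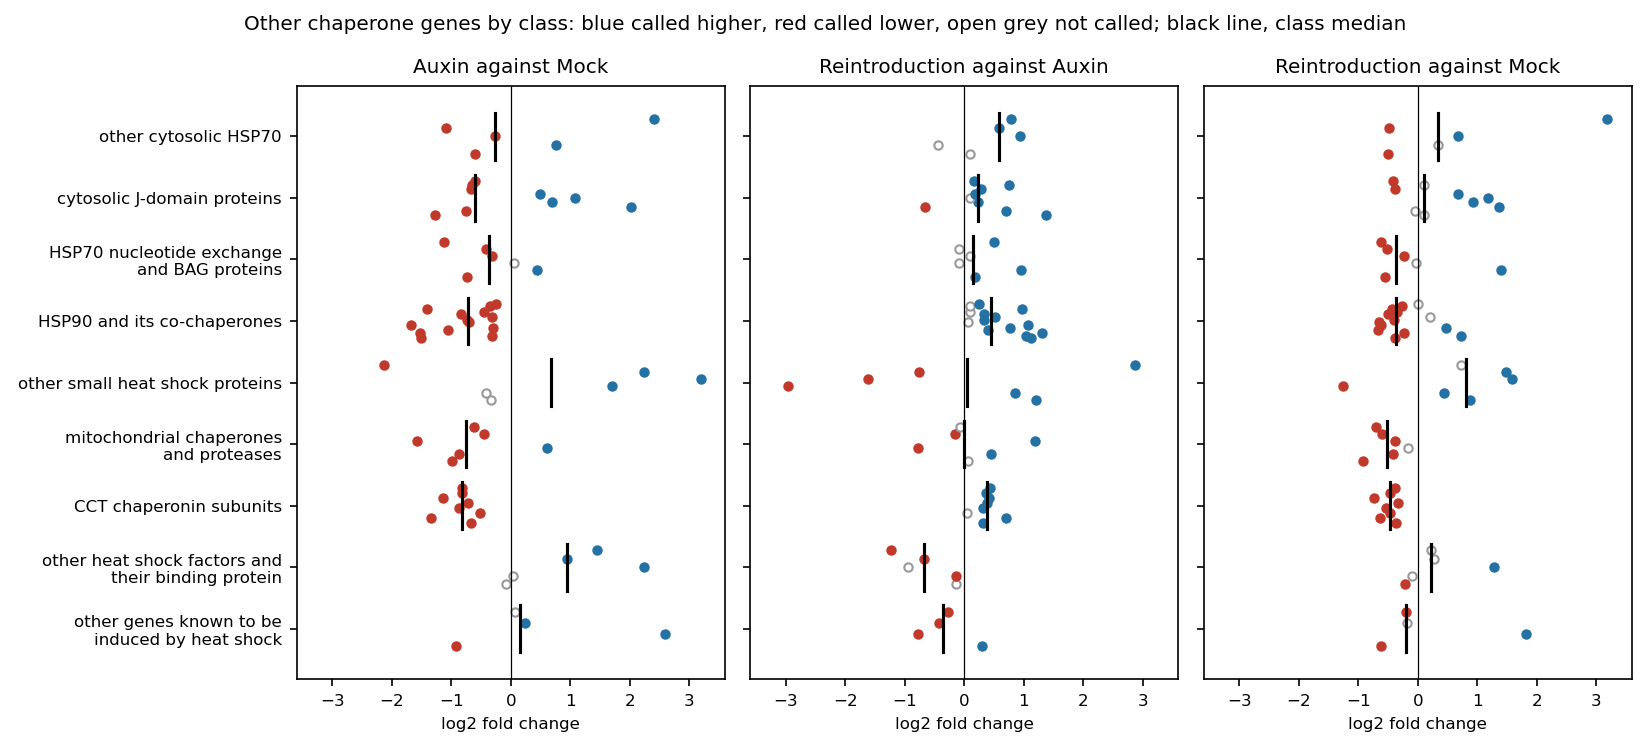
Log2 fold change of each of the 63 other chaperone genes tested (points, grouped by class) in the 3 comparisons. Blue points were called higher, red points lower and open grey points were not called, and black lines are class medians. All HSP90 co-chaperone and CCT points lie below 0 in Auxin against Mock and above 0 in Reintroduction against Auxin.

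Likeness to Hspa1b was measured over the 9 libraries as the root-mean-square difference of log2 CPM, each gene centred on its own mean, among 15921 genes. Genes outside the list that were among the 5 closest included Gm13502 (0.151), Idi1 (0.258), Gm37784 (0.281) and Dio3 (0.282). Idi1 encodes isopentenyl-diphosphate isomerase, an enzyme of isoprenoid synthesis, and had means of 107, 19.4 and 145 CPM in Mock, Auxin and Reintroduction. Dio3, which encodes a deiodinase that inactivates thyroid hormone, had 1.64, 0.400 and 2.63 CPM. By the same measure Hspa1a was at 0.154, Hspa8 at 0.49, Hsph1 at 0.658 and Dnajb1 at 0.968, so the 4 genes named before were closer to Hspa1b than Hspa8 was. Hspb1 (1.07), Hspe1 (1.16), Bag3 (1.22), Hsp90aa1 (1.3) and Hsf1 (1.36) were further away. The 3 groups of libraries set most of this distance, and no p-value is given for it.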

How the data were processed

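Polyadenylated RNA of 9 libraries was sequenced in paired 75-base reads, per the labels' protocols. The authors deposited raw read counts per gene, made with featureCounts 2.0.6 over mm10 exons without a strand or pair option, per the file headers. The submitters' processing notes also name Trim Galore 0.6.10, FastQC 0.12.1, Bowtie2 2.5.3 and SAMtools 1.20 without their roles, and the handling of reads that map to several places is not given in the sources used here.

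Genes passing filterByExpr (20838 of 48440) were scaled by TMM and fitted over all 9 libraries by group in edgeR 4.0.16 (R 4.3.3, quasi-likelihood test, two-sided). Benjamini-Hochberg adjustment ran over all genes tested, and genes were called at an adjusted p under 0.05. CPM and RPKM values were computed from the deposited counts with TMM-scaled totals. The common coefficient of variation was 9.15%. On simulated counts for 20838 genes, the test recovered 74.5%, 70.5% and 72% of 200 genes changed 2-fold in Auxin against Mock, Reintroduction against Auxin and Reintroduction against Mock, and false calls made up 6.88%, 6% and 5.88% of calls.

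The members and lists were chosen with earlier results of these data known. Named were all 10 members, in each comparison the 3 largest rises and falls of the chaperone list (called, at least 1 CPM in the higher group, no overlap), and the 5 genes nearest Hspa1b, of which 1 is not reported here. Genes quoted as the range, exception or overlap of a class were chosen after their values were seen. Shared 75-base stretches came from GENCODE M21 transcripts and promoters from RefSeq (GRCm38.p6). Alternatives covered scaling, filters, DESeq2 1.42.0, 2-group fits, a replicate block, length and GC trends, halved counts, a fold limit, summed copies and each library left out.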

Additional observations from a re-analysis of the deposited data

How the results depend on the processing

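Of the alternatives, requiring a fold change of at least 2 moved the counts by over 1.5 times. It left 2 members, 21 other chaperone genes and 6625 genes in all in Auxin against Mock, 11 chaperone genes and 2289 genes in Reintroduction against Auxin, and 1 member, 9 chaperone genes and 4664 genes in Reintroduction against Mock. Leaving out 1 library at a time gave 7 to 8 members called in Auxin against Mock, 7 to 9 in Reintroduction against Mock and 9 above 0 in Reintroduction against Auxin. The chaperone counts then ran from 55 to 59, 43 to 50 and 47 to 54, and the counts over all genes from 14381 to 16236, 9142 to 11581 and 13106 to 15313, in Auxin against Mock, Reintroduction against Auxin and Reintroduction against Mock.

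Signs turned for 4 values, and the cause was not tested. With length and GC trends removed together, Hspb1 in Auxin against Mock, called lower in the report, was 0.0864, Hsp90aa1 -0.0650 and Hsf1 in Reintroduction against Auxin 0.0174 on the log2 scale. Hsp90aa1 in Auxin against Mock was -0.0096 without Auxin replicate 1 and -0.0062 without Auxin replicate 3, in a range up to 0.1979 without Auxin replicate 2. Bag3 in that comparison was -0.0230 with DESeq2 size factors and in the DESeq2 Wald test. Leaving out single libraries gave -0.0471 and -0.0043 without Mock replicates 2 and 3, -0.0752 without Auxin replicate 2, and -0.0044 and -0.0037 without Reintroduction replicates 1 and 3, and at most 0.0785 (without Auxin replicate 3). Over all alternatives this value reached 0.2234. Total counts without TMM gave 9748 higher and 5662 lower calls over all genes in Auxin against Mock (7996 and 7261 with TMM), and 4279 and 6393 in Reintroduction against Auxin (5305 and 5308).

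Replicate numbers did not pair the libraries: deviations of same-numbered libraries from their group means correlated at -0.172 to 0.0547. With the replicate block, 7 members were called in Auxin against Mock and 8 in Reintroduction against Mock, where Hsp90aa1 was not called (0.25, adjusted p = 0.0643, edgeR). Hspa1a, at 67 to 98 counts per Auxin library, is the member whose depth limits it most.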
